A study of Mus musculus with 24 samples.

Results

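The genes described here are 41 mouse genes of DNA replication and nucleotide supply, chosen by symbol from the 49568 gene symbols of the deposited count table. They comprise 12 genes of origin licensing and the replicative helicase, 4 GINS subunits, 6 genes of the sliding clamp and its loader, and 8 of the DNA polymerases and primase. The remaining members are 4 genes of single-strand binding and lagging-strand processing, 3 of nucleotide supply, and 4 of chromatin assembly, methylation copying and Cdt1 turnover. All 41 passed the expression filter in every comparison.

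RNA came from NIH/3T3, an immortalised mouse fibroblast line grown in bovine calf serum. Cells received halofuginone (HF, 100 nM in the sample labels) or an equal volume of its vehicle PBS for 24 h at 37 °C. HF inhibits the charging of proline onto its tRNA by the synthetase that Eprs encodes. Each treatment gave 4 kinds of RNA: HF total RNA, HF ribosome-free RNA, HF light polysomes and HF heavy polysomes, and vehicle total RNA, vehicle ribosome-free RNA, vehicle light polysomes and vehicle heavy polysomes. Each of these 8 groups held 3 libraries, 24 in all. Separate cultures are not mentioned in the labels, so p-values reflect the spread among these libraries, which may be technical.

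Libraries are called by the tag in their column header. Library A of each group belongs to set A, whose HF headers read 50 nM, unlike the labels, and whose pools joined gradient fractions 1 to 2, 3 to 6 and 7 to 11. The dose in set A is therefore not settled. HF and vehicle libraries of one tag are set side by side as pairs. In total RNA the tags were not taken to pair libraries, and those pairs are not treated as matched samples. Libraries 2 and 3 of total RNA, and libraries 2 and 4 of the pools, form set B, whose pools joined fractions 1 to 5, 6 to 13 and 14 to 21. Total counts ran from 10300517 to 24970047 per library, and the members together took 0.104% to 0.702% of them. Values are CPM, counts scaled to a common library size by the TMM method within a kind of RNA. They give shares of a pool, so fewer cells of a type and less RNA per cell cannot be told apart.

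Some libraries stood apart in their response to HF. Eprs had 344, 1080 and 1090 CPM in HF total RNA libraries A, 2 and 3, against 347, 307 and 334 CPM in vehicle. Trib3, a stress-response pseudokinase gene, had 29.4, 231 and 215 CPM in the same HF libraries, against 13.3, 14.8 and 13.3 CPM in vehicle. HF total RNA library A was thus at the vehicle level of Eprs, and results in total RNA are given with and without set A. In heavy polysomes Trib3 had 273, 74.3 and 674 CPM in HF libraries A, 2 and 4, against 17.8, 50.8 and 159 CPM in vehicle, so that library 2 showed the smallest ratio there. In light polysomes Trib3 had 198, 35.1 and 468 CPM with HF, against 16.5, 44.6 and 161 CPM in vehicle, lower with HF in library 2. In ribosome-free RNA it had 77.2, 11.3 and 49.3 CPM with HF, against 7, 14.2 and 48.9 CPM in vehicle, lower in library 2 and level in library 4. The members' median log2 fold change without HF library 2 was 0.46 in heavy polysomes, 0.39 in light polysomes and 0.19 in ribosome-free RNA. Leaving out HF library 2 leaves its tag partner unpaired, so these medians also hold the difference between tags. Of the vehicle libraries, library 4 had the highest Trib3 in each pool. In pair 4 the members' median log2 ratio was 0.59 in heavy polysomes, 0.57 in light polysomes and 0.08 in ribosome-free RNA. The part of vehicle library 4 in these values was not tested. All 8 fibroblast markers reached 5 CPM in each of the 8 groups, and their summed level was 4710 to 9720 CPM in HF total RNA and 9880 to 11200 CPM in vehicle total RNA. In total RNA 0 of 5 epithelial and 0 of 6 leukocyte markers reached 5 CPM, and 2 of 5 adipocyte markers did (Fabp4 and Lpl). The summed level of 5 endothelial markers was 26.3 to 85.9 CPM in HF total RNA and 10.5 to 17.1 CPM in vehicle total RNA, and Vwf was the only marker of that list to reach 5 CPM there. The part of these markers in the results was not tested.

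Replication origins are licensed before S phase, when ORC, Cdc6 and Cdt1 load the MCM ring onto DNA. Cdc45 and GINS then turn the ring into an active helicase. The primase and DNA polymerase alpha start each strand, the clamp loader RFC places the PCNA clamp for the main polymerases, and Fen1 and Lig1 finish the lagging strand. Ribonucleotide reductase and thymidylate synthase supply the deoxynucleotides. Most of these genes are transcribed in late G1 and S phase, many of them as known targets of E2F factors.

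Promoters are shown first. Cdt1, Rrm1 and Rrm2 are shown because their values differ widely in set B of total RNA, and Mcm6 because its window holds 3 matches to the words searched. Pola1 is also shown, though Chaf1b, Lig1, Uhrf1 and Gins2 differed by more in set B. RefSeq promoter windows (GRCm38.p6, 250 bases before to 50 after the start) existed for 34 of the 41 members. They were searched on both strands for 4 E2F-type words of 8 letters, TTTGGCGC, TTTCGCGC, TTTCCCGC and TTTGCCGC. At least one word was present in a window of 15 of these 34 members (44.1%), against 4.76% of 9393 genes tested in total RNA with a window, and 19 members had none. Some genes have several windows, and counted by window the words were in 2.27% of all 32851. In the lines below capitals mark the words, and a word found on the other strand appears as its reverse complement. In Mcm6 the first pair of words overlap.
Cdt1, chr8:122567765-122568064, plus strand: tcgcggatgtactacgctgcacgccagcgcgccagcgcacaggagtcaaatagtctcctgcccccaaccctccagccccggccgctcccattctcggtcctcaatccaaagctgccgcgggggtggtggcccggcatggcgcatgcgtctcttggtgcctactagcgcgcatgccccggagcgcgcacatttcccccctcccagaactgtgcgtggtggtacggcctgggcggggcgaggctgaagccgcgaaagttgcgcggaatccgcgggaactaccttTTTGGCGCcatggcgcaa
Pola1, chrX:93632106-93632405, minus strand: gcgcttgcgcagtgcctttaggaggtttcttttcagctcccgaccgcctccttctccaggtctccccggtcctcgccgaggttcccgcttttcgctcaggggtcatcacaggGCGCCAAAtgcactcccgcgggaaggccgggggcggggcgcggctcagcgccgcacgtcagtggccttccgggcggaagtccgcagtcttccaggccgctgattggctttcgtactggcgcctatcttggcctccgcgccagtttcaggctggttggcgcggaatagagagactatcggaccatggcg
Mcm6, chr1:128359656-128359955, minus strand: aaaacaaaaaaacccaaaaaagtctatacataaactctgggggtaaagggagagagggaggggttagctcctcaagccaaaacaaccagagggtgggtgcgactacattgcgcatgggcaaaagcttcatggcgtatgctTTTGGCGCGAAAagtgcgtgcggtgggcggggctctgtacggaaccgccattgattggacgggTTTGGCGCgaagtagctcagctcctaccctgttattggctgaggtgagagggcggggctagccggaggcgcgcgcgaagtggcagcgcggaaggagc
Rrm1, chr7:102441445-102441744, plus strand: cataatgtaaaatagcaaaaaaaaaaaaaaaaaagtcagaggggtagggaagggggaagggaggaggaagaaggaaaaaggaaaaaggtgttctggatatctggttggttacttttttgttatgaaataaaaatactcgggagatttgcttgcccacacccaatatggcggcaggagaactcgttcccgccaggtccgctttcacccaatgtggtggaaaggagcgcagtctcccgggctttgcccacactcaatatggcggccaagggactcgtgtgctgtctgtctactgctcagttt
Rrm2, chr12:24708004-24708303, plus strand: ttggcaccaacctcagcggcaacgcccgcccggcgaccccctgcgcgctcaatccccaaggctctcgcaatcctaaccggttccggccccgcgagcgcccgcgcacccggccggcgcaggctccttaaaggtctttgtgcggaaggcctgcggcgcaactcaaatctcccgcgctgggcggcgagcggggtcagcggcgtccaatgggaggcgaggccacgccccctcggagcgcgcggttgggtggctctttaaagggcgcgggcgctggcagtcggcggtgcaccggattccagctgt
Counted from the start site, the words began at 33 in Cdt1, at -138 in Pola1, and at -110, -106 and -47 in Mcm6. Neither ribonucleotide reductase window held one of the 4 words, which says only that these letters are not in these windows. The other windows with a word were those of Cdc6, Dtl, Gins3, Lig1, Mcm3, Mcm5, Mcm7, Orc1, Pold1, Pole2, Rfc3 and Uhrf1. Genes with a word had no common direction in set B of total RNA. Cdt1, Pola1, Mcm3 and Mcm7 rose, Gins3, Lig1, Mcm5, Orc1, Pold1, Pole2 and Uhrf1 fell, and the others were not called. Of all 41 members 9 rose and 19 fell there, against 33.1% and 36.9% of all genes. The words were not tested against the HF response.

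Proline codons were counted because the drug acts on proline charging. CCN codons made up a median of 4.93% of codons in the members, against 5.5% over 11340 tested genes with a coding sequence. The share ran from 2.47% in Cdc45 to 11.3% in Cdt1, where 63 of 557 codons encode proline, at the 95.1 percentile of the tested genes. Chaf1b followed at 8.74%. The stretch of 20 codons richest in proline codons in Cdt1 spans codons 78 to 97 and holds 9 of them, written here in capitals.
Cdt1, codons 78 to 97: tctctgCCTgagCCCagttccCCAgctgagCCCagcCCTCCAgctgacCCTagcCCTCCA
No test of the HF response on proline codons was made.

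In total RNA the members had no common direction with HF. Cdt1 was the highest relative to vehicle and Rrm2 the lowest. By role the median log2 fold change was 0.16 for licensing and helicase genes, -0.18 for single-strand binding and lagging-strand genes, -0.27 for GINS, -0.37 for chromatin genes and -0.66 for nucleotide supply, with members on both sides of 0 in several roles and no test by role. In pair A the medians of GINS (0.16), lagging-strand (0.08) and chromatin genes (0.03) were above 0. Taking 3 libraries of each treatment, edgeR (quasi-likelihood) called 0 of 41 members at an adjusted p under 0.05, and 0.0% of 13020 genes. Unadjusted p was under 0.05 for 3 members, Cdt1, Rrm2 and Mcm2, and for 2292 genes in all. DESeq2 called 515 genes (3.96%), of which Cdt1 was the only member. The median log2 fold change of the members was -0.05, against 0.02 over all genes tested, and 18 of the 41 were above 0. Without HF library A the members' median was -0.25, and without HF library 2 it was 0.03.

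The count rested on HF library A. Without that library 22 members were called, against 61.3% of 13455 genes. Within set B, with 2 libraries per group, 28 of 41 members were called, against 70.0% of 13334 genes, so the members were called about as often as genes at large. Of the 28, 9 rose and 19 fell. The share of all genes that rose was 33.1%, and 36.9% fell. Both HF libraries of set B differed by a mean chi-square of 3.12 per gene, more than sampling noise but less than any other pair of total RNA libraries of one treatment, where the lowest was 21.1. The set B errors rest on these pairs.

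**Figure D1:**
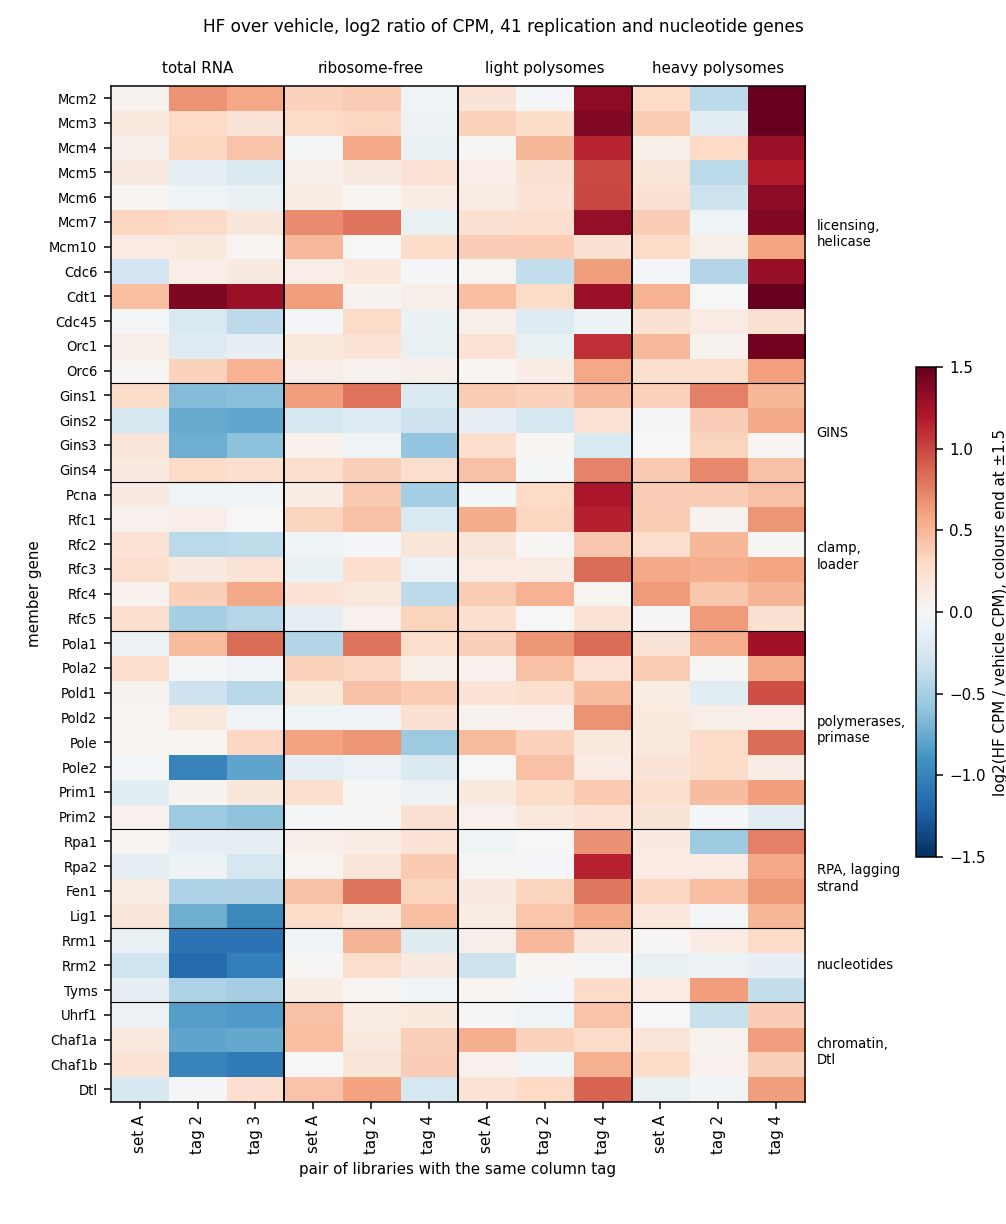
Log2 ratio of HF over vehicle CPM (colour, ending at 1.5 either side of 0) for each of the 41 members (rows, by role) in each pair of libraries with one column tag (columns, by kind of RNA). Set A of total RNA is pale, libraries 2 and 3 of total RNA show Cdt1 high with Rrm1, Rrm2 and Chaf1b low, and library 4 of the polysome pools is high in the licensing rows.

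Among the licensing factors Cdt1, which loads the MCM ring and is destroyed once replication starts, had 154, 246 and 227 CPM in HF libraries A, 2 and 3, against 113, 93.1 and 92.2 CPM in vehicle. All HF libraries were above all vehicle libraries. The log2 fold change was 1.08 ± 0.22 (SE) with an adjusted p of 0.267 by edgeR and 0.00482 by DESeq2. In set B it was 1.31 ± 0.07 with an adjusted p of 3.57e-06. Cdc6, its partner in loading, had 31.6, 37.3 and 37.3 CPM with HF, against 38.5, 34.8 and 34.0 CPM in vehicle. The groups overlapped and the log2 fold change was -0.02 ± 0.15. Orc1, the largest ORC subunit, had 44.7, 31.1 and 31.2 CPM with HF, against 42.1, 35.7 and 34.1 CPM in vehicle. Its groups overlapped, with library A highest under either treatment, and it fell within set B by 0.21 on the log2 scale (adjusted p 0.0495).

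Among the helicase genes, Mcm2 had 273, 346 and 330 CPM with HF, against 263, 217 and 220 CPM in vehicle. Every HF library was above every vehicle library, and the log2 fold change was 0.44 ± 0.17 (adjusted p 0.272), or 0.58 ± 0.07 in set B (adjusted p 0.000163). Mcm6, another subunit of the ring, had 263, 223 and 222 CPM with HF, against 259, 234 and 239 CPM in vehicle. Its groups overlapped and it was not called in set B either (-0.13 ± 0.07, adjusted p 0.111). Mcm5, also a ring subunit, had 224, 147 and 140 CPM with HF, against 205, 161 and 162 CPM in vehicle. It fell within set B by 0.22 on the log2 scale (adjusted p 0.023). Ring subunits therefore differed in set B: Mcm2, Mcm3, Mcm4 and, at the edge of the threshold (adjusted p 0.05 after rounding), Mcm7 rose, Mcm5 fell and Mcm6 was not called. Cdc45, which joins the active helicase, had 57.4, 40.8 and 36.8 CPM with HF, against 58.5, 48.0 and 48.5 CPM in vehicle. Its HF libraries were lower in each pair, and it fell by 0.36 in set B (adjusted p 0.00553). In all, 6 of the 12 licensing and helicase genes rose in set B and 3 fell, where 33.1% of all genes rose and 36.9% fell.

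The GINS complex, the other helicase partner, moved mostly the other way. Gins2 had 29.0, 15.7 and 15.3 CPM with HF, against 34.3, 26.9 and 26.7 CPM in vehicle. HF libraries 2 and 3 were below every vehicle library, and library A lay within the vehicle range. The log2 fold change was -0.55 ± 0.30 (adjusted p 0.34) and -0.84 ± 0.09 in set B (adjusted p 0.000122). In set B Gins1, Gins2 and Gins3 fell and Gins4 rose. Gins2 shares 67.3% of its exon bases with Gse1 on the opposite strand, and the strand setting of the counting is not given in the sources used here, so its counts are less certain.

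Pcna, the sliding clamp, had 152, 126 and 120 CPM with HF, against 139, 131 and 125 CPM in vehicle. The groups overlapped almost wholly, with a log2 fold change of 0.01 ± 0.16, and -0.10 ± 0.07 in set B. Rfc3, a clamp loader subunit, had 40.9, 34.5 and 32.7 CPM with HF, against 34.4, 31.4 and 28.3 CPM in vehicle, with overlap. The loader divided in set B, where Rfc4 rose, Rfc2 and Rfc5 fell, and Rfc1 and Rfc3 were not called.

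Pola1, the catalytic subunit of polymerase alpha, had 61.0, 125 and 123 CPM with HF, against 64.7, 90.0 and 68.8 CPM in vehicle. HF libraries 2 and 3 were above every vehicle library and library A was below them, so the groups overlapped. It was called within set B at 0.60 ± 0.12 (adjusted p 0.00263). Pole, the catalytic subunit of leading-strand polymerase epsilon, had 100.0, 86.2 and 95.9 CPM with HF, against 97.9, 84.8 and 77.1 CPM in vehicle. Prim1, the catalytic primase subunit, had 39.7, 44.6 and 45.5 CPM with HF, against 44.9, 43.1 and 40.3 CPM in vehicle. Both overlapped between treatments and neither was called in set B. Of the other polymerase and primase genes, Pole2, Prim2 and Pold1 fell in set B, and Pola2 and Pold2 were not called.

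Rpa2, a subunit of the single-strand binding complex, had 40.4, 28.6 and 28.0 CPM with HF, against 44.9, 30.1 and 33.5 CPM in vehicle. It was lower with HF in each pair, with overlap between the groups. Fen1, the flap nuclease, had 129, 62.4 and 61.7 CPM with HF, against 119, 86.5 and 84.6 CPM in vehicle. Lig1, the ligase that seals the fragments, had 164, 66.7 and 66.4 CPM with HF, against 144, 111 and 130 CPM in vehicle. Both were highest in HF library A and lowest in HF libraries 2 and 3. In set B Fen1 fell by 0.51 (adjusted p 0.000376) and Lig1 fell by 0.90 (adjusted p 6.91e-05), but 84.2% of the Fen1 exon bases overlap Tmem258 and Gm10143 on the opposite strand.

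The nucleotide supply genes were lower with HF in every pair of libraries. Rrm1, the large subunit of ribonucleotide reductase, had 282, 122 and 120 CPM with HF, against 304, 264 and 258 CPM in vehicle. Only library A came within the vehicle range, and the log2 fold change was -0.66 ± 0.36 (adjusted p 0.35), or -1.15 ± 0.07 in set B (adjusted p 4.48e-06). Rrm2, the S phase small subunit, had 155, 80.1 and 81.0 CPM with HF, against 190, 180 and 166 CPM in vehicle. Its groups did not overlap, with -0.76 ± 0.29 (adjusted p 0.272) and -1.15 ± 0.08 in set B (adjusted p 6.86e-06). Tyms, thymidylate synthase, had 89.3, 50.2 and 49.0 CPM with HF, against 97.3, 69.4 and 69.3 CPM in vehicle. Its groups overlapped through library A, and it fell by 0.53 in set B (adjusted p 0.000361).

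Uhrf1, which brings DNA methyltransferase to new DNA, had 185, 103 and 100.0 CPM with HF, against 197, 182 and 182 CPM in vehicle. Chaf1b, a subunit of the histone chaperone CAF-1, had 109, 34.1 and 35.1 CPM with HF, against 95.0, 68.6 and 73.5 CPM in vehicle. In both, HF libraries 2 and 3 were far below every vehicle library and library A was within or above the vehicle range. The falls in set B were 0.89 for Uhrf1 (adjusted p 1.62e-05) and 1.08 for Chaf1b (adjusted p 1.27e-05), where Chaf1a, the other CAF-1 member, fell too. Dtl, which directs Cdt1 to destruction, had 51.2, 78.7 and 79.5 CPM with HF, against 60.6, 79.7 and 66.5 CPM in vehicle. It overlapped between treatments and was not called in set B (0.07 ± 0.10).

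**Figure D2:**
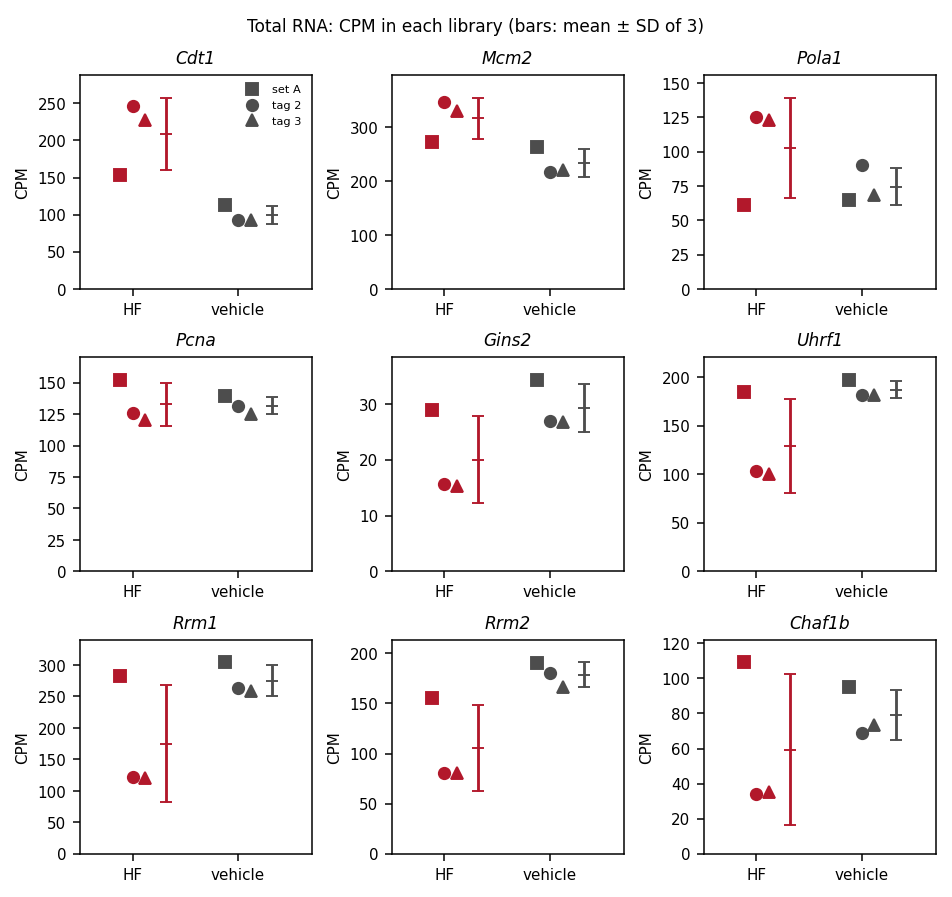
CPM of 9 members in each total RNA library, HF left and vehicle right in each panel, with the mean and SD of 3 libraries as a bar. Cdt1 and Mcm2 have all HF libraries above all vehicle libraries, Rrm2 has all below, and in Gins2, Uhrf1, Rrm1 and Chaf1b HF library A alone sits at the vehicle level.

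Groups without overlap were few in total RNA. Cdt1, Mcm2, Rfc4 and Orc6 had all HF libraries above all vehicle libraries, as did 12.2% of all genes, and Rrm2 alone had all below, as did 11.6% of all genes. Libraries of one tag were also set side by side, which in total RNA was not taken to match samples. In all 3 pairs 12 members were higher and 8 lower with HF, against 21.4% and 22.4% of all genes. The medians over the members were 0.06, -0.07 and -0.13 in pairs A, 2 and 3. Their range was -0.30 to 0.45 in pair A and -1.16 to 1.40 in pair 2. Per kilobase of exon, the most abundant members in vehicle total RNA were Mcm3 (70.5 CPM per kb), Mcm4 (68.8) and Rrm2 (64.5), while with HF they were Mcm4 (83.8), Mcm3 (81.6) and Cdt1 (66.6).

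Other genes of the same pathways are given from fixed lists. In set B total RNA, 13 of 30 other fork factors rose and 7 fell, and 17 of 24 other nucleotide supply genes rose and 2 fell, with a median log2 fold change of 0.73. Of 28 G1/S cyclins, kinases, inhibitors and E2F genes 8 rose and 15 fell, and 0 of 25 mitosis genes rose and 25 fell, with a median of -1.73. Over all genes in set B 33.1% rose and 36.9% fell. With all libraries none of these lists had a called gene (0.0% of genes). Dut, which removes dUTP, had 51.3, 73.4 and 72.3 CPM with HF, against 46.8, 41.9 and 44.5 CPM in vehicle, all higher. Tk1, the S phase thymidine kinase, had 116, 25.6 and 24.1 CPM with HF, against 119, 83.1 and 91.3 CPM in vehicle. Rrm2b, the reductase subunit used outside S phase, had 8.39, 34.0 and 33.3 CPM with HF, against 8.56, 17.5 and 13.5 CPM in vehicle. Tk1 and Rrm2b were at the vehicle level in library A and apart from it in libraries 2 and 3, Tk1 lower and Rrm2b higher.

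Of the regulators, Ccne1, cyclin E1, had 50.2, 25.8 and 23 CPM with HF, against 63.7, 51.2 and 49.6 CPM in vehicle. Ccnd1, cyclin D1, had 193, 259 and 238 CPM with HF, against 248, 316 and 308 CPM in vehicle. Each was lower with HF in every pair, though the groups overlapped. Cdkn1a, the kinase inhibitor p21, had 163, 160 and 155 CPM with HF, against 142, 107 and 119 CPM in vehicle, with every HF library higher. E2f1 had 80.3, 52.4 and 51.9 CPM with HF, against 84.2, 63.6 and 67.7 CPM in vehicle. It was lower with HF in each pair, and its groups overlapped through library A. Clspn, a checkpoint adaptor at forks, had 84.3, 36.4 and 38.7 CPM with HF, against 91.9, 78.2 and 80.6 CPM in vehicle. Dnmt1, the maintenance methyltransferase, had 290, 173 and 170 CPM with HF, against 289, 238 and 259 CPM in vehicle. In both, HF libraries 2 and 3 were below every vehicle library, and library A was not. Ccne2, cyclin E2, had 11.3, 25.0 and 23.2 CPM with HF, against 15.6, 28.8 and 16.4 CPM in vehicle, with no common direction over the pairs.

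In heavy polysomes, which the labels define as messages with more than 5 ribosomes, 40 of the 41 members had a log2 fold change above 0, against 51.6% of all genes. Their median was 0.34, against 0.02 over all genes, and it was 0.13 without HF library A and 0.64 without vehicle library A. None of the 41 was called by edgeR (0.0% of 12222 genes). Unadjusted p was under 0.05 for Rfc3 and Gins4 and for 754 genes in all, and DESeq2 called 78 genes (0.638%) and no member. With the column tag as a replicate block the members' median was 0.32. Unadjusted p in that edgeR fit was under 0.05 for 7 members and 1956 genes, and no member was called. The size differed between pairs. The members' median log2 ratio was 0.20, 0.09 and 0.59 in pairs A, 2 and 4, with 37, 27 and 38 of 41 above 0. For licensing and helicase genes it was 0.27, -0.04 and 1.32, so that pair 4 carried most of their mean difference. The list of 30 other replication fork factors had medians of 0.19, 0.32 and 0.66, with 27, 21 and 25 above 0, so they shared the direction. The 24 other nucleotide supply genes had 0.205, -0.04 and 0.82, with 20, 11 and 22 above 0. The 25 mitosis genes had 0.06, 0.35 and -0.79. The list of G1/S genes had -0.09, 0.09 and 0.26.

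The licensing genes in heavy polysomes showed this spread. Cdt1 had 214, 122 and 331 CPM in HF libraries A, 2 and 4, against 149, 123 and 104 CPM in vehicle, with a log2 fold change of 0.83 ± 0.38 (adjusted p 0.811). Mcm2 had 346, 70.3 and 305 CPM with HF, against 281, 92.1 and 79.9 CPM in vehicle. In both, pair 4 differed most and pair 2 was level or lower, and the groups overlapped. Mcm6 had 355, 95.1 and 287 CPM with HF, against 303, 118 and 113 CPM in vehicle. Mcm5 had 372, 95.8 and 266 CPM with HF, against 328, 127 and 116 CPM in vehicle. Both followed Mcm2, lower with HF in pair 2 and higher in the others. Cdc6 had 61.2, 21.6 and 60.3 CPM with HF, against 61.9, 29.4 and 24.1 CPM in vehicle. It was higher with HF in pair 4 only. Orc1 had 46.2, 19.6 and 24.3 CPM with HF, against 32.9, 18.9 and 8.63 CPM in vehicle. Cdc45 had 118, 97.2 and 79.2 CPM with HF, against 100.0, 89.0 and 67.3 CPM in vehicle, a little higher in each pair.

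Genes of the clamp loader and of polymerase alpha were among those without overlap in heavy polysomes. Rfc3 had 130, 103 and 129 CPM with HF, against 87.4, 70.0 and 85.4 CPM in vehicle. All HF libraries were above all vehicle libraries, and the log2 fold change was 0.57 ± 0.23 (adjusted p 0.792). Pola1 had 28.1, 27.0 and 30.9 CPM with HF, against 24.6, 18.4 and 12.7 CPM in vehicle, again without overlap but with the widest gap in pair 4 (0.63 ± 0.29, adjusted p 0.811). Pcna had 401, 368 and 295 CPM with HF, against 309, 285 and 217 CPM in vehicle. It was higher with HF in each pair by like amounts, but HF library 4 lay within the vehicle range. Gins4, Rfc4 and Pole2 also had no overlap, making 5 members with HF above vehicle, against 5.4% of all genes, and no member with HF below, against 7.06%. Higher in all 3 pairs were 25 members, against 20.7% of all genes, and lower in all 3 was Rrm2 alone, against 24.7%.

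**Figure D3:**
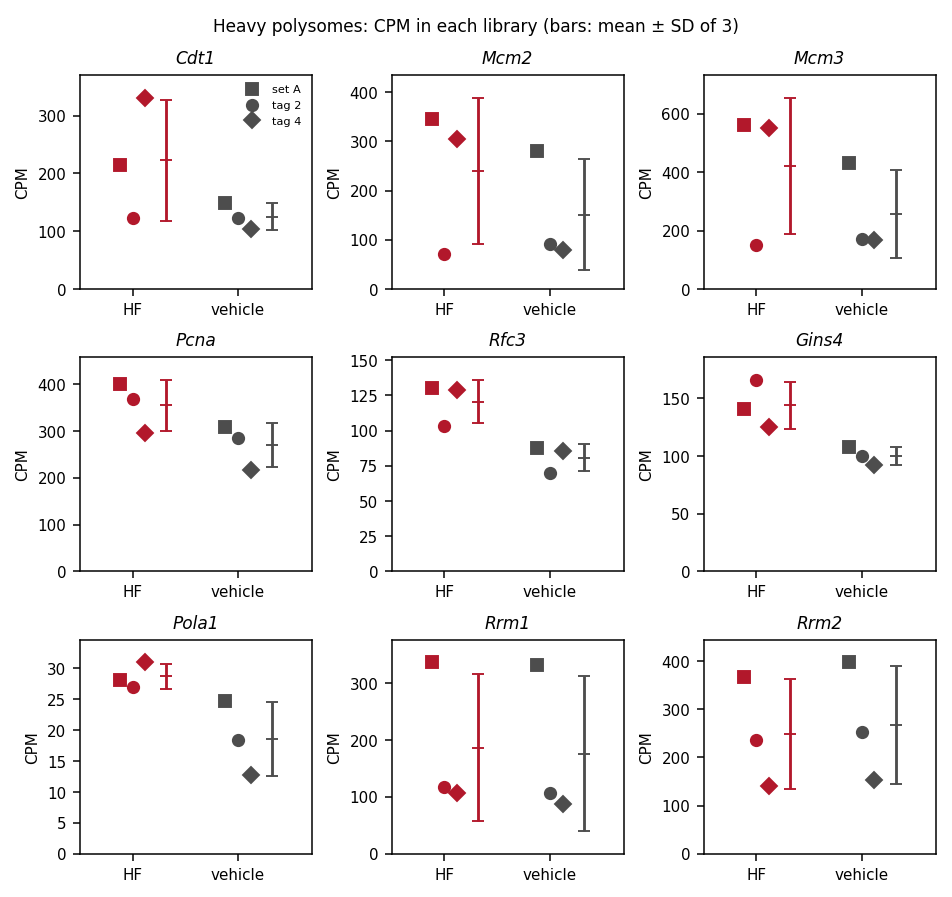
CPM of 9 members in each heavy polysome library, HF left and vehicle right in each panel, with the mean and SD of 3 libraries as a bar. Rfc3, Gins4 and Pola1 show no overlap, Mcm2 and Mcm3 have a high HF library 4, and Rrm1 and Rrm2 have nearly equal values in the pairs.

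The other members in heavy polysomes overlapped between treatments. Gins2 had 72.0, 59.4 and 54.2 CPM with HF, against 72.9, 46.0 and 36.5 CPM in vehicle. Pole had 36.6, 21 and 22.1 CPM with HF, against 33.1, 17.1 and 12.2 CPM in vehicle. Prim1 had 96.1, 78.5 and 77.9 CPM with HF, against 81.4, 56.8 and 50.1 CPM in vehicle. Pole and Prim1 were higher with HF in each pair, and Gins2 in pairs 2 and 4. Rpa2 had 101, 77.7 and 70.6 CPM with HF, against 92.4, 71.1 and 46.9 CPM in vehicle. Fen1 had 267, 194 and 184 CPM with HF, against 214, 142 and 117 CPM in vehicle. Lig1 had 231, 95.3 and 137 CPM with HF, against 206, 96.0 and 97.0 CPM in vehicle. These genes were above vehicle in every pair except Lig1 in pair 2. Rpa1, the remaining gene of this role, had a log2 ratio of -0.53 in pair 2.

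Nucleotide and chromatin genes had the smallest median log2 fold changes of the roles in heavy polysomes, 0.09 and 0.21. Rrm1 had 336, 117 and 107 CPM with HF, against 332, 107 and 87.7 CPM in vehicle (0.09 ± 0.62). Rrm2 had 367, 237 and 141 CPM with HF, against 397, 252 and 153 CPM in vehicle (-0.11 ± 0.45). In both, library A was the highest and library 4 the lowest under either treatment, so the values followed the tag. Tyms had 274, 276 and 163 CPM with HF, against 251, 179 and 209 CPM in vehicle, with no common direction. Uhrf1 had 198, 76.0 and 130 CPM with HF, against 197, 95.6 and 101 CPM in vehicle. Chaf1b had 188, 102 and 138 CPM with HF, against 155, 97.2 and 107 CPM in vehicle. Dtl had 44.6, 36.7 and 59.1 CPM with HF, against 48.3, 37.8 and 38.1 CPM in vehicle. Chaf1b was higher with HF in each pair, while Uhrf1 and Dtl were not.

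In light polysomes 38 of 41 members were above 0, with a median log2 fold change of 0.29 against 0.01 over all genes, and none was called (0.0% of 12632 genes). The median was 0.09 without HF library A and 0.62 without vehicle library A. Unadjusted p was under 0.05 for Rfc1 and for 540 genes in all, and DESeq2 called 39 genes (0.309%). With the column tag as a replicate block the members' median was 0.33. Unadjusted p in that edgeR fit was under 0.05 for 6 members and 1716 genes, and no member was called. Pola1 had 14.6, 23.2 and 16.7 CPM with HF, against 11.2, 14.5 and 9.16 CPM in vehicle. Cdt1 had 183, 141 and 189 CPM with HF, against 134, 115 and 77.4 CPM in vehicle. Both had every HF library above every vehicle library, as had Rfc1 and Dtl, making 4 members, against 4.43% of all genes. No member had every HF library below, against 5.97%. In all 3 pairs 26 members were higher and 0 were lower, against 20.7% and 23.5% of all genes. The pair medians were 0.13, 0.23 and 0.57, and pair 4 was again the highest. The 30 other fork factors had pair medians of 0.31, 0.29 and 0.605, and mitosis genes had 0.12, 0.43 and -1.06.

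In ribosome-free RNA the members' median log2 fold change was 0.14, against -0.001 over all genes, with 35 of 41 above 0 and none called (0.0% of 11960 genes). Its direction turned with single libraries, to -0.22 without HF library A and -0.09 without vehicle library 4, and it was 0.60 without vehicle library A and 0.45 without HF library 4. Leaving out 1 library leaves its tag partner unpaired, so these values also hold the difference between tags. With the column tag as a replicate block the median was 0.14, with 38 of 41 above 0, against 51.2% of all genes. At an unadjusted p under 0.05 edgeR gave 0 members and 30 genes without the block, and 3 members and 1002 genes with it. DESeq2 called 0 genes. No member had groups without overlap, where 1.15% of all genes were higher and 0.853% lower. In all 3 pairs 14 members were higher, against 14.7% of all genes, and Gins2 and Pole2 were lower, against 13.5%. Pair medians were 0.11, 0.18 and 0.08.

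**Figure D4:**
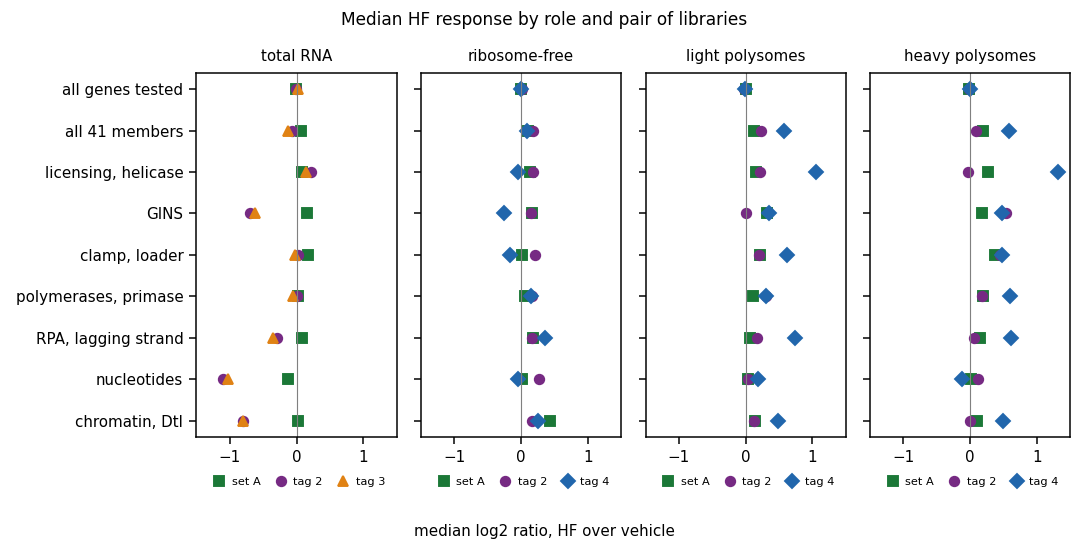
Median log2 ratio of HF over vehicle (horizontal) for all genes tested, for the 41 members and for each role (vertical), 1 symbol per pair of libraries and 1 panel per kind of RNA. The medians over all genes sit near 0, the nucleotide, chromatin and GINS roles lie left of 0 in total RNA pairs 2 and 3, and the licensing role reaches 1.32 in heavy polysome pair 4.

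The HF effect in heavy polysomes was set against that in total RNA in a model over both kinds of RNA. The difference of the log2 fold changes was above 0 for 40 of 41 members, against 48.3% of all genes, with a median of 0.42 against -0.02. The median was 0.23 without HF heavy library A and 0.76 without vehicle heavy library A. No member and no gene was called (0.0% of 13459 genes). Unadjusted p was under 0.05 for Pole2 and for 128 genes in all, and DESeq2 called 1 gene (0.00743%), which is not a member. With the column tag within each kind of RNA as a block, edgeR gave an unadjusted p under 0.05 for 8 members and 332 genes. In total RNA those tags were not taken to match samples. By role the median difference was 0.67 for nucleotide supply, 0.62 for GINS, 0.59 for chromatin genes, 0.51 for single-strand binding and lagging-strand genes, 0.39 for the clamp and its loader, 0.37 for licensing and 0.31 for polymerases. Cdc45, Pole2, Rpa2 and Rrm1 were below vehicle in every total RNA pair and above vehicle in every heavy polysome pair, as were 0.686% of 11962 genes, with total RNA libraries set side by side by tag alone. This count asks only for the sign. Rrm1 in heavy pair A and Cdc45 in total RNA pair A were nearly level. Mitosis genes had a median difference of 0.68, with 25 of 25 above 0, so the direction was shared with genes outside replication. By pair their medians were 0.02, -1.65 and -1.55 in total RNA (A, 2 and 3) and 0.06, 0.35 and -0.79 in heavy polysomes (A, 2 and 4). The smallest Trib3 ratio was in library A of total RNA but in library 2 of heavy polysomes. The part of this mismatch in the differences was not tested. Other nucleotide supply genes had a median of -0.07, with 9 of 24 above 0.

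Set against the effect in ribosome-free RNA, the effect in heavy polysomes was larger for 35 of 41 members, against 58.2% of all genes, with a median difference of 0.30 against 0.08. This median turned to -0.28 without vehicle ribosome-free library A and -0.12 without HF ribosome-free library 4. Those fits also leave a tag partner unpaired. With the column tag as a replicate block the median was 0.25, with 37 of 41 above 0, against 55.3% of all genes. No member and no gene was called (0.0% of 13053 genes). At an unadjusted p under 0.05 edgeR gave 0 members and 53 genes without the block, and 3 members and 763 genes with it. DESeq2 called 0 genes. Clamp and loader genes had a median of 0.37, licensing genes 0.35 and GINS 0.32, while chromatin genes had -0.01.

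The position of the members on the gradient without drug was measured as vehicle heavy polysomes over vehicle ribosome-free RNA, with all 12 heavy and ribosome-free libraries scaled together. The members lay toward the heavy pool, with a median log2 ratio of 0.81 in the fit against -0.02 over all genes. Other nucleotide supply genes lay there too, with medians of 0.75, 0.79 and 0.93 in vehicle pairs A, 2 and 4. Mitosis genes had 0.735, 0.20 and 0.63, and other fork factors 0.40, -0.06 and 0.06. Of the 41, 8 were called, all higher in heavy polysomes, against 11.9% of 12225 genes called higher and 17.7% called lower, 29.6% in all. Pcna led with 236, 219 and 164 CPM in heavy libraries A, 2 and 4, against 62.2, 38.7 and 18.2 CPM in ribosome-free libraries. Its log2 ratio was 2.30 ± 0.50 (adjusted p 0.0103). Lig1 had 157, 73.8 and 73.4 CPM in heavy and 39.0, 22.7 and 14.3 CPM in ribosome-free libraries (1.92 ± 0.50, adjusted p 0.0206). Uhrf1 had 150.0, 73.4 and 76.0 CPM in heavy and 24.9, 34.4 and 18.9 CPM in ribosome-free libraries (1.89 ± 0.42, adjusted p 0.0107). In each of them every heavy library was above every ribosome-free library.

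The other called members had the same form. Chaf1a had 135, 70.2 and 53.7 CPM in heavy and 30.5, 24.6 and 14.3 CPM in ribosome-free libraries (1.83 ± 0.47), with 52.5% of its exon bases overlapping Ubxn6 on the opposite strand. Mcm6 had 231, 90.7 and 85.8 CPM in heavy and 52.6, 44.4 and 30.0 CPM in ribosome-free libraries (1.62 ± 0.48). Pola2, the regulatory subunit of polymerase alpha, had 134, 87.1 and 74.9 CPM in heavy and 46.3, 27.9 and 18.3 CPM in ribosome-free libraries (1.60 ± 0.45). All 3 were without overlap. Mcm10, which helps start the helicase, had 50.8, 21 and 20.3 CPM in heavy and 12.1, 9.73 and 7.41 CPM in ribosome-free libraries (1.59 ± 0.45). Fen1 had 163, 109 and 88.4 CPM in heavy and 57.0, 40.3 and 30.3 CPM in ribosome-free libraries (1.43 ± 0.41). Adjusted p for these 5 lay between 0.0186 and 0.0338. Of the Fen1 exon bases 84.2% overlap Tmem258 and Gm10143 on the opposite strand.

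Orc6 and Dtl lay at the other end of the list. Orc6, the smallest ORC subunit, had 90.1, 74.7 and 53.9 CPM in heavy and 166, 87.6 and 62.5 CPM in ribosome-free libraries, lower in the heavy library of each pair. Dtl had 36.8, 29.0 and 28.8 CPM in heavy and 20.4, 56.1 and 58.1 CPM in ribosome-free libraries, higher in pair A and lower in the others. In all, 13 members had every vehicle heavy library above every ribosome-free library, against 24.9% of genes, and 0 members had every one below, against 22.3%. With HF these counts were 18, against 21.8% of genes, and 0, against 19.0%.

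The gradient count moved with single libraries. With the column tag as a replicate block 18 members were called, all higher, against 36.9% of genes in either direction. The count was 22 in set B alone (21 higher and 1 lower, 45.4% of genes), 18 with the column set as covariate (38.2%) and 19 with no expression filter (21.9%). Leaving out ribosome-free library A gave 25 members (24 higher and 1 lower, 47.2% of genes), leaving out ribosome-free library 2 gave 3 (19.9%), leaving out ribosome-free library 4 gave 5 (22.8%), and leaving out heavy library A gave 2 (15.2%). By pair the members' median log2 ratio of heavy over ribosome-free was 0.88, 0.71 and 1.87 with HF in pairs A, 2 and 4, against 0.84, 0.73 and 0.97 in vehicle. Only pair 4 showed a wide gap between treatments. There Mcm3 had a ratio of 3.42 with HF and 1.52 in vehicle, and Cdt1 had 2.68 with HF and 1.00 in vehicle. In pair 2 Cdt1 had 0.52 with HF and 0.54 in vehicle.

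**Figure D5:**
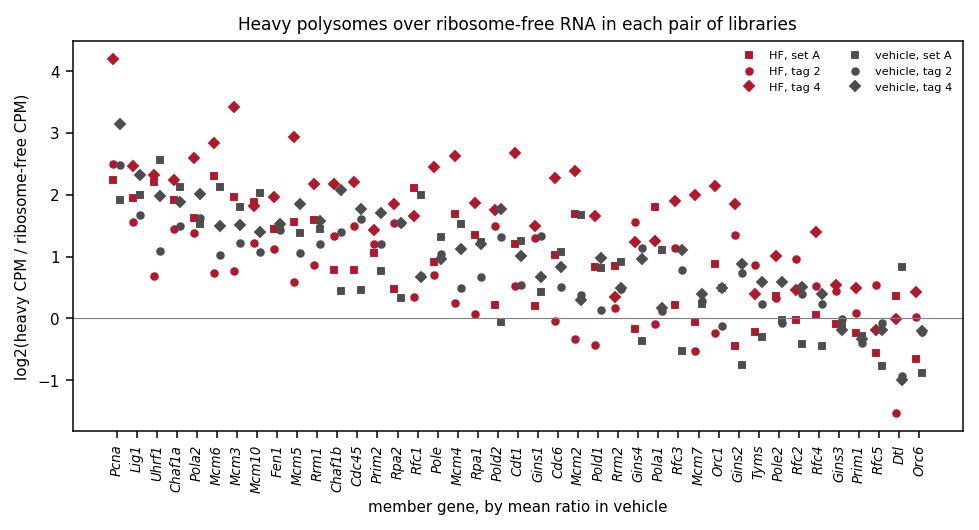
Log2 ratio of heavy polysome over ribosome-free CPM (vertical) for each of the 41 members, ordered by the vehicle mean (horizontal), HF in red left of vehicle in grey, 1 symbol per pair of libraries. Pcna, Lig1 and Uhrf1 lie above 0 in all 6 pairs, Orc6 and Rfc5 lie near or below 0 in most, and the HF diamonds of pair 4 stand above the rest for most licensing genes.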

How the data were processed

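RNA-seq of 24 libraries from NIH/3T3 cells was analysed from raw counts, which the authors deposited as one table with gene symbols as rows. The submitters' processing notes name the build GRCm38.p5 and, as tools, featureCounts, Subread 1.5.0p3, STAR 2.5.2b and Trimmomatic 0.36. Whether strand was used, and how reads matching more than one gene were counted, is not given in the sources used here. Per the labels' protocols the library kit was Illumina TruSeq Stranded mRNA. The table held 0 columns of no sample. Its columns were matched to the 8 groups by their headers, and not to single samples.

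Under R 4.3.3, edgeR 4.0.16 fitted all genes by quasi-likelihood (TMM, default expression filter, Benjamini-Hochberg threshold 0.05), 6 libraries per comparison and 12 for differences between kinds of RNA. Printed adjusted p-values come from these fits or, where named, from DESeq2 1.42.0. Log2 ratios of pairs used CPM plus 0.5. The edgeR fits were also run on simulated counts. These were drawn without differences between tags or sets, so they do not cover the pairing by tag described below. The alternatives were DESeq2, median-of-ratios scaling, no filter, a 5 CPM filter, leaving out each library, a block by column tag, set B alone and the column set as covariate. The members and lists were chosen with earlier results of these data known. Members called in the vehicle gradient comparison and 22 members that stand for their roles are given in full, and genes outside the members by a fixed short list, not all of which is reported here. Extremes and non-overlapping members were named after their values were seen.

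Whether tags pair the libraries was read from the data, because the labels do not explain the tags. Deviations from the group means of 10125 genes correlated between same-tag libraries at 0.358 to 0.929 in the pools and at 0.242 to 0.450 between vehicle heavy and ribosome-free libraries, so the tags were taken to pair the pools. In total RNA the same-tag pairs A, 2 and 3 correlated at 0.396, 0.441 and 0.00698, and HF library 3 with vehicle library 2 at 0.5. The tags were therefore not taken to pair total RNA libraries, and whether some of them do is not settled. Coordinates and exon overlaps come from GENCODE M21 (GRCm38), and promoters from RefSeq.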

Additional observations from a re-analysis of the deposited data

How the results depend on the processing

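The count of called members in total RNA was 0 with all libraries (0.0% of all genes), 1 with DESeq2 (3.96%) and 28 with set B alone (70.0%). Leaving out one library gave 0 to 22, the highest without HF library A (61.3% of all genes). The counts for the ribosome-free, light and heavy pools and for both differences between kinds of RNA were 0 under every alternative that was run. For vehicle heavy against ribosome-free RNA the count was 8 (29.6% of all genes). It became 19 with no expression filter (21.9%), 22 with set B alone (45.4%) and 18 with the column set as covariate (38.2%). Leaving out one library gave 2 (15.2% of all genes) to 25 (47.2%). The cause of these moves was not tested.

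With the replicate block by column tag that count was 18 (36.9% of all genes), and the block changed no other count of called members. It raised the number of members with an unadjusted p under 0.05 in edgeR in every comparison. The number over all genes rose too, from 754 to 1956 in heavy polysomes and from 30 to 1002 in ribosome-free RNA. Only in total RNA did the number over all genes fall, from 2292 to 2207. Pairing by tag reversed 1 named value, Dtl in total RNA, at -0.001 under the block. With the column set as covariate Dtl was -0.005, and in set B Cdc6 was 0.07 and Pcna -0.10 in total RNA. Leaving out single libraries reversed some named values near 0. In total RNA the log2 fold change ran from -0.062 to 0.049 for Cdc6, -0.084 to 0.19 for Dtl, -0.30 to 0.076 for Mcm5, -0.27 to 0.027 for Orc1, -0.11 to 0.082 for Pcna, -0.034 to 0.063 for Prim1 and -0.36 to 0.019 for Rpa2. In heavy polysomes it ran from -0.015 to 0.325 for Dtl, -0.18 to 0.68 for Lig1, -0.056 to 1.01 for Mcm5, -0.64 to 0.94 for Rrm1, -0.49 to 0.30 for Rrm2 and -0.33 to 0.46 for Uhrf1. The members' median log2 fold change stayed above 0 in light (0.09 to 0.62) and heavy polysomes (0.13 to 0.64) without any 1 library, and not in ribosome-free RNA (-0.22 to 0.60). In the pools, leaving out 1 library leaves its tag partner unpaired, so these ranges also hold differences between tags.

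Precision is limited by 3 libraries per group, by the differing fraction pools and unsettled dose of set A, and by the wide spread of the polysome libraries. Counting error is widest for Pole, with as few as 28 counts in a library, and Orc1, with as few as 40.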
